A study of Homo sapiens with 4 samples.

Results

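TGF-beta signaling was examined through 10 of its genes in 786-O renal carcinoma cells with and without VHL. The 10 genes are the ligand genes TGFB1, TGFB2 and INHBA, the receptor genes TGFBR1, TGFBR2 and TGFBR3, the signal transducer SMAD3, the feedback genes SMAD7 and SKIL, and the target gene TGFBI. They were chosen by symbol and by their known place in the pathway, with earlier results of these data known. They are 10 of the 12912 genes in the count table. All 10 passed the filter on low counts, as did 12335 genes in all.

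786-O is a human clear cell renal cell carcinoma line without functional VHL, the substrate-binding subunit of a ubiquitin ligase that marks HIF-alpha proteins for degradation. RNA sequencing compared 786-O-Ctrl with 786-O-VHL, in which HA-tagged VHL was stably expressed from a retroviral pBabe-puro vector, with 2 libraries per group. The labels name the TR versions of both sublines, which by the methods of the study carry a triple reporter (GFP, luciferase and thymidine kinase) in an SFG retroviral vector, and both were grown in RPMI1640 with fetal bovine serum. The sublines are called control cells and VHL-restored cells from here on. Each group was 1 subline from which RNA was extracted in duplicate, so the p-values measure the spread between these libraries, which may be technical, and a difference caused by VHL cannot be told apart from another difference between the sublines.

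TGF-beta ligands are secreted as latent complexes that must be activated before they bind. An active ligand brings together the type II receptor TGFBR2 and the type I receptor TGFBR1, which phosphorylates SMAD2 and SMAD3. These proteins enter the nucleus with SMAD4 and regulate target genes, among them SMAD7 and SKIL, whose products dampen the same signal. In the kidney the pathway is best known for its part in fibrosis and matrix production.

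The sequence upstream of the transcription start is shown for 3 of the genes, which stand for a ligand, the transducer and a feedback gene. Each run is the 250 bases before the start of the MANE Select transcript in GRCh37, on the strand of the gene, and none of these bases lies in an annotated exon of that gene. Capitals mark the letters CAGAC (a core to which SMAD proteins bind), ACGTG and GCGTG (the core of the hypoxia response element), searched on both strands. Overlapping matches were counted, and a CACGTG counts on both strands. The TGFB2 window is chr1:218518428-218518677 on the plus strand, the SMAD3 window is chr15:67357690-67357939 on the plus strand, and the SMAD7 window is chr18:46477336-46477585 on the minus strand.
TGFB2: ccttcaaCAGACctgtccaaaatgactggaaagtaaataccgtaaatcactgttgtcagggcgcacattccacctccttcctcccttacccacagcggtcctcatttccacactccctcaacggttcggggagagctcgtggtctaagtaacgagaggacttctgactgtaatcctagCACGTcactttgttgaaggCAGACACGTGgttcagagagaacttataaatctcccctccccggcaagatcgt
SMAD3: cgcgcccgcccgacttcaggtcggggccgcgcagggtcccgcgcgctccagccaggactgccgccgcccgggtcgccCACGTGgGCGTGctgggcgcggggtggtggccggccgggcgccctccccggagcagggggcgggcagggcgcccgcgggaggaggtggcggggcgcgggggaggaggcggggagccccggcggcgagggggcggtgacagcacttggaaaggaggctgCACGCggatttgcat
SMAD7: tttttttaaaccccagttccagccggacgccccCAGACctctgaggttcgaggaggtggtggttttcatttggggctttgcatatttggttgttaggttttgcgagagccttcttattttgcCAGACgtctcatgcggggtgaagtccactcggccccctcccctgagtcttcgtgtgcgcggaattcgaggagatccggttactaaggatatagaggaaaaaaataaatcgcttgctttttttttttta

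The TGFB2 window held 2 matches to CAGAC, the nearer 49 bases before the start, and 3 to ACGTG, the nearest 44 bases before the start. The SMAD7 window held 2 matches to CAGAC and none to either hypoxia core. In the GC-rich SMAD3 window (80.8% GC, against a median of 63.2% over all windows) there were 2 matches to ACGTG and 2 to GCGTG. Among the 10 genes, CAGAC was found in 4 windows, ACGTG in 3 and GCGTG in 4. The same letters were found in 35.9%, 20.5% and 40.3% of the 19819 windows of protein-coding genes. All 250 bases of the SKIL window and 76 of the TGFBR1 window lie in annotated exons of the same gene. The palindrome GTCTAGAC was found in 0 of the 10 windows and in 0.172% of all windows. These matches describe the sequence and were not measured as binding.

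The deposited counts summed to between 2807779 and 22141263 per library, and VHL-restored replicate 1 was the shallowest. Levels are given in CPM, a gene's counts divided by the library total scaled by TMM and multiplied by 1e6, a factor that centers most genes between libraries. The control libraries are called the deeper and the shallower one. VHL mRNA, which checks the labels, was at 42.87 and 43.92 CPM in control cells and at 178.1 and 163.2 CPM in VHL-restored cells. Of 12 markers of kidney epithelium and renal carcinoma 11 were in the table, and their summed level was 3658 to 3694 CPM in control cells and 2157 to 2160 CPM in VHL-restored cells. VIM, which is also counted among TGF-beta targets, contributed 1668 and 1699 CPM to that sum in control cells and 750.9 and 708.7 CPM in VHL-restored cells. Fibroblast markers (5 of 9 in the table) summed to 12.3 to 13.29 CPM in control cells and 16.92 to 18.65 CPM in VHL-restored cells, endothelial markers (3 of 7) to at most 1.329 CPM and leukocyte markers (1 of 8) to at most 1.017 CPM in any library. The part of these shifts in the results below was not tested. In bulk RNA, fewer cells with a transcript and less transcript per cell cannot be told apart.

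Of the 10 genes, 6 were higher and 3 were lower in VHL-restored cells at an edgeR FDR under 0.05, and TGFBR3 was not called. All 3 ligands, TGFBR2, SMAD7 and SKIL were higher, whereas TGFBR1, SMAD3 and TGFBI were lower. The background is wide in these libraries, since 64.5% of all genes tested were called, 32.6% as higher and 31.9% as lower. No member changed more than 2-fold, against 17.5% of all genes that were called and changed that much. The libraries of the groups did not overlap for 9 of the 10 members and for 80.0% of all genes. The median absolute log2 fold change was 0.485 for the members and 0.428 for all genes tested, so as a list the members moved about as much as the rest of the transcriptome.

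**Figure D1:**
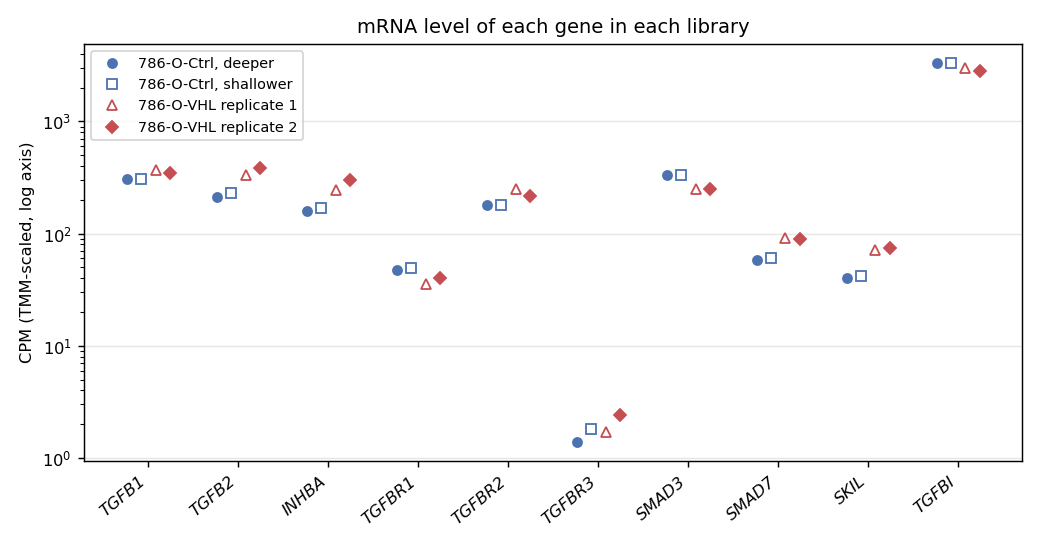
The level of each gene is plotted for each of the 4 libraries in CPM on a log axis, with blue for control cells and red for VHL-restored cells. TGFBI lies highest, from 2796 to 3323 CPM, and TGFBR3 lowest, from 1.377 to 2.434 CPM, and TGFBR3 is the only gene of the 10 whose groups overlap.

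Among the ligands, TGFB2 and INHBA rose more than TGFB1. TGFB2, an isoform with low affinity for TGFBR2 in the absence of TGFBR3, lies on the plus strand of chr1:218518678-218617961. Its level was 212.1 and 229.9 CPM in the deeper and the shallower control library and 333.7 and 381.7 CPM in VHL-restored replicates 1 and 2. Both VHL-restored libraries were above both control libraries, by a larger gap than that within either group. The increase was 1.639-fold, a log2 fold change of 0.71 ± 0.07 (SE) with an edgeR FDR of 3.79e-10.

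INHBA encodes the beta A subunit shared by activin A, which signals through activin receptors to SMAD2 and SMAD3, and inhibin A, which opposes activin. The gene lies on the minus strand of chr7:41706766-41745432. It was measured at 160.1 and 169.9 CPM in control cells and at 245.6 and 302.1 CPM in VHL-restored cells. The groups were apart, although the VHL-restored libraries also differed from each other. The increase was 1.697-fold (log2 fold change 0.76 ± 0.07 SE, edgeR FDR 4.53e-10).

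TGFB1, the most widely expressed isoform, lies on the minus strand of chr19:41807492-41859827. Its level was 305.1 and 306.3 CPM in control cells and 367.3 and 344.1 CPM in VHL-restored cells. The control libraries were nearly equal and both VHL-restored libraries were higher. The increase was 15.7% (log2 fold change 0.21 ± 0.06 SE, edgeR FDR 0.00429). The call was lost without the deeper control library (log2 fold change 0.21, edgeR FDR 0.113) and without the shallower one (0.21, edgeR FDR 0.0998). HNRNPUL1 overlaps exons of TGFB1 on the opposite strand and was lower in VHL-restored cells (log2 fold change -0.68, edgeR FDR 2.38e-10). TGFB2, INHBA and SMAD3 also share exon bases with annotated antisense genes, and TGFB2 with TGFB2-OT1 on its own strand. Whether counting used strand is not given in the sources used here, so reads of such neighbors cannot be told apart from those of these genes.

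Scaled to exon length (RPKM, which is CPM per kilobase of exon), the ligands kept their order in both groups, TGFB1 first, then TGFB2, then INHBA. Mean RPKM was 93.66 in control cells and 109 in VHL-restored cells for TGFB1, 36.53 and 59.13 for TGFB2, and 19.92 and 33.05 for INHBA. The ratio of TGFB2 to TGFB1 within a library, which does not depend on how libraries are scaled, was 0.375 and 0.4049 in control cells and 0.4902 and 0.5985 in VHL-restored cells. The share of TGFB2 relative to TGFB1 was thus higher in both VHL-restored libraries.

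The type I and type II receptors moved in opposite directions. TGFBR1, the type I receptor kinase, lies on the plus strand of chr9:101866320-101916474. It stood at 47.67 and 49.7 CPM in control cells and at 35.61 and 39.84 CPM in VHL-restored cells. Both VHL-restored libraries were below both control libraries. Its level fell by 20.1% (log2 fold change -0.32 ± 0.09 SE, edgeR FDR 0.00228). With library totals as the only scaling the log2 fold change was -0.19 and the edgeR FDR 0.0606, and with all libraries thinned to the depth of the shallowest these were -0.16 and 0.387.

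TGFBR2, the ligand-binding type II receptor kinase, lies on the plus strand of chr3:30648093-30735634. Its values were 180.4 and 179.9 CPM in control cells and 252.3 and 214.2 CPM in VHL-restored cells. The control libraries were nearly identical, and both VHL-restored libraries were higher and less alike. The increase was 1.269-fold (log2 fold change 0.34 ± 0.07 SE, edgeR FDR 9.33e-05). Per exon base, TGFBR2 exceeded TGFBR1 by 4.414 and 4.221 times in control cells and by 8.265 and 6.272 times in VHL-restored cells.

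TGFBR3, the co-receptor betaglycan that presents TGF-beta 2 to the type II receptor, was barely expressed. The gene, on the minus strand of chr1:92145900-92371892, received 29 and 27 counts in control cells and 5 and 41 counts in VHL-restored cells. These counts correspond to 1.377 and 1.794 CPM in control cells and to 1.696 and 2.434 CPM in VHL-restored cells. The groups overlapped. For the library with 5 counts the exact Poisson 95% interval, which covers counting error only, was 0.551 to 3.96 CPM. The log2 fold change of 0.55 had a 95% interval from -0.20 to 1.30 (edgeR FDR 0.194), so that no difference was detectable at this depth.

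**Figure D2:**
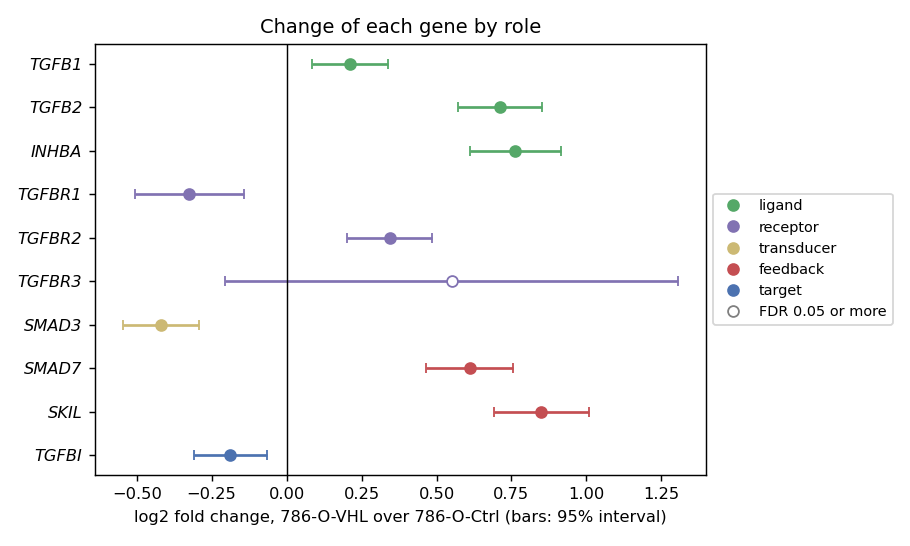
Points give the log2 fold change of each gene, VHL-restored over control cells, bars give its 95% interval, and colors give its role. The feedback genes and the ligands TGFB2 and INHBA lie between 0.61 and 0.85, TGFBR1, SMAD3 and TGFBI lie below 0, and the interval of TGFBR3 crosses 0.

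SMAD3, the transducer that carries the signal from the receptors to DNA, was lower in VHL-restored cells. It lies on the plus strand of chr15:67356101-67487511. The level was 334.6 and 332.6 CPM in control cells and 248.9 and 249.5 CPM in VHL-restored cells. The libraries of each group were almost equal and the groups were well apart. The level fell by 25.26% (log2 fold change -0.42 ± 0.06 SE, edgeR FDR 1.08e-06).

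Both feedback genes were higher. SMAD7, the inhibitory SMAD that blocks the type I receptor and recruits ubiquitin ligases to it, lies on the minus strand of chr18:46446223-46477335. It was at 58.49 and 60.07 CPM in control cells and at 91.23 and 90.13 CPM in VHL-restored cells. Replicates were nearly identical in both groups. The increase was 1.527-fold (log2 fold change 0.61 ± 0.07 SE, edgeR FDR 1.62e-08).

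SKIL encodes SnoN, a nuclear co-repressor that binds SMAD proteins at target genes. It had the largest fold change of the 10 genes and lies on the plus strand of chr3:170075130-170114623. Its level was 40.45 and 41.79 CPM in control cells and 71.56 and 74.99 CPM in VHL-restored cells. The difference between the groups was many times the difference within either. The increase was 1.803-fold (log2 fold change 0.85 ± 0.08 SE, edgeR FDR 1.66e-10).

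Since SMAD3 fell and the feedback genes rose, their ratios had to move more than any of these genes alone. Per exon base, SMAD7 stood to SMAD3 as 0.4435 and 0.4582 in control cells and as 0.9298 and 0.9163 in VHL-restored cells, a 2.047-fold higher ratio. The ratio of SKIL to SMAD3 was 0.1491 and 0.155 in control cells and 0.3545 and 0.3706 in VHL-restored cells, 2.384-fold higher. Neither ratio overlapped between the groups, which follows from the single genes and adds no separate result. With 2 libraries per group the smallest p an exact two-sided permutation test can give is 0.333, so the ratios are given without a test.

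**Figure D3:**
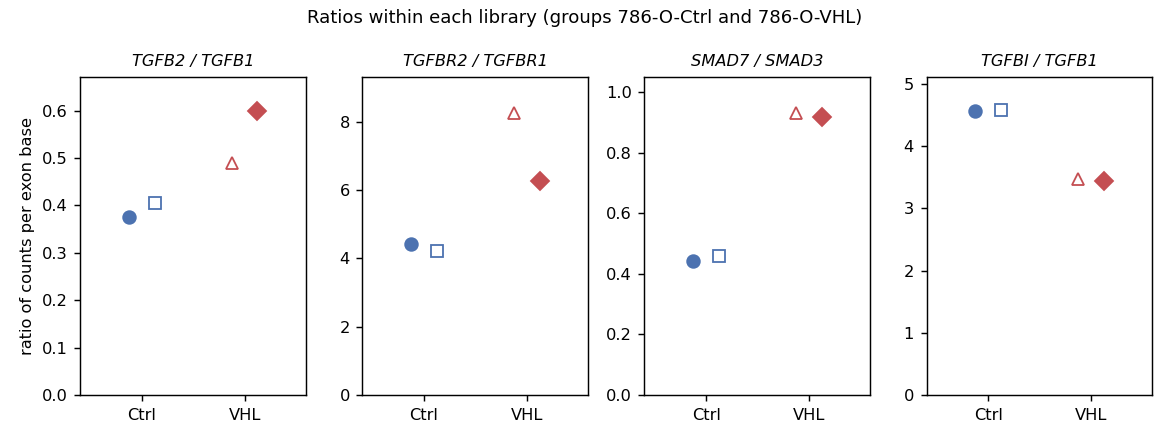
Each panel plots the ratio of 2 genes, in counts per exon base, within each library, with control cells in blue and VHL-restored cells in red on an axis that starts at 0. TGFB2 over TGFB1, TGFBR2 over TGFBR1 and SMAD7 over SMAD3 are higher in both VHL-restored libraries, and TGFBI over TGFB1 is lower in both.

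TGFBI, an extracellular matrix protein first found as a TGF-beta-induced gene, was the most abundant of the 10 transcripts and changed the least. It lies on the plus strand of chr5:135364677-135399507. Its level was 3296 and 3323 CPM in control cells and 3019 and 2796 CPM in VHL-restored cells. Both VHL-restored libraries were below both control libraries. The level fell by 12.24% (log2 fold change -0.19 ± 0.06 SE, edgeR FDR 0.00678). The call was lost with library totals as the only scaling (-0.05, edgeR FDR 0.423), with upper-quartile scaling (-0.10, edgeR FDR 0.117), and without the deeper (-0.20, edgeR FDR 0.172) or the shallower (-0.19, edgeR FDR 0.195) control library.

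Relative to the ligand TGFB1, TGFBI was lower in VHL-restored cells whatever the scaling. The ratio per exon base was 4.57 and 4.588 in control cells and 3.476 and 3.437 in VHL-restored cells. It combines the rise of TGFB1 with the fall of TGFBI, so it adds no separate result on TGFBI. The feedback gene SMAD7 moved the other way against TGFBI, from 0.03471 and 0.03535 in control cells to 0.05911 and 0.06304 in VHL-restored cells. Of the members listed here as feedback or target genes, SMAD7 and SKIL rose, whereas TGFBI fell slightly and its call depended on the scaling.

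The direction of each of the 10 changes was the same under TMM, RLE, upper-quartile scaling (chosen after seeing the data) and library totals. Library totals shifted the median gene by 0.13 on the log2 scale relative to TMM and raised the share of calls that were higher from 50.5% to 62.1%. A change of scaling shifts all genes by about the same amount, so all members had to move that way. This brought TGFBR1, SMAD3 and TGFBI nearer to 0 and the genes that rose farther from it. Even the smallest change under TMM, -0.19 for TGFBI, was larger in size than the shift, so no direction could reverse.

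**Figure D4:**
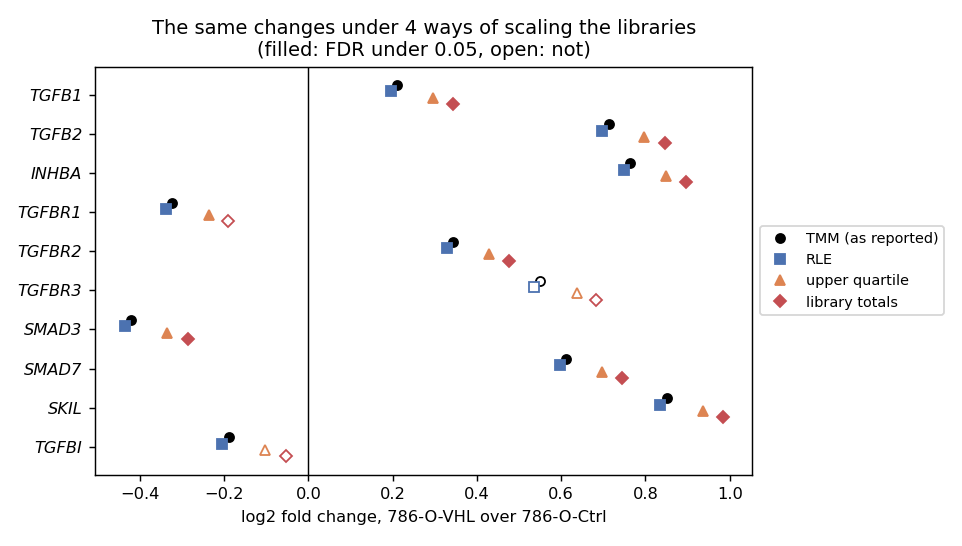
The log2 fold change of each gene is plotted under 4 ways of scaling the libraries, with filled symbols where the edgeR FDR was under 0.05. Every gene keeps its side of 0, TGFBI loses its call under upper-quartile scaling and library totals, and TGFBR1 loses it under library totals.

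The wider pathway was read from 6 lists of other genes, which were also chosen with earlier results of these data known. Of 136 genes listed, 107 were in the table and 103 were tested, of which 49 were higher (47.6%, against 32.6% of all genes), 31 were lower (30.1%, against 31.9%) and 23 were not called. The median log2 fold change was 0.22 for the lists and 0.02 for all genes tested. With library totals as the only scaling 55 of the list genes were higher and 19 lower. Under that scaling all genes shifted as well, with 5077 called higher and 3097 lower, against 4017 and 3939 under TMM.

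The list of other ligands had 11 tested genes, of which 6 were higher (54.5%, against 32.6% of all genes) and 4 lower (36.4%, against 31.9%). Among the 6, BMP1 encodes a protease and not a ligand, and without it (a choice made after seeing the data) 5 of 10 were higher and 4 lower, with a median log2 fold change of 0.72. INHBE, an activin subunit gene, had a log2 fold change of 3.34 ± 0.18 (SE), from a mean of 2.658 CPM in control cells to 26.66 CPM in VHL-restored cells. GDF15, a stress-induced member of the family, rose by 2.72 ± 0.09, from 71.91 to 462.5 CPM. BMP4 was called higher from few reads, with 7 and 1 counts in control cells and 4 and 51 counts in VHL-restored cells, and most of its counts came from 1 library, so no fold is given. INHBB, the beta B counterpart of INHBA, fell by 0.92 ± 0.07, from 155.5 to 80.17 CPM, so the activin subunit genes did not share a direction. BMP8B fell by 0.52 and GDF11 fell by 0.44 on the log2 scale. BMP8B was low, with means of 8.122 CPM in control cells and 6.203 CPM in VHL-restored cells.

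Of 18 genes of latency and activation, 7 were higher (38.9%, against 32.6% of all genes) and 7 lower (38.9%, against 31.9%). The latent TGF-beta binding protein gene LTBP3 (log2 fold change 1.12), the activator thrombospondin gene THBS1 (1.08) and the integrin gene ITGB6 (0.90) were higher. ITGB8 and ITGB5, which also encode integrin subunits that act on latent TGF-beta, fell by 1.76 and 0.88, and the protease gene MMP9 fell by 1.61 on the log2 scale. MMP9 was low, with means of 6.399 CPM in control cells and 2.616 CPM in VHL-restored cells. The integrin genes of this list therefore moved in both directions.

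Of 10 other receptors 6 were higher (60%, against 32.6% of all genes) and 1 was lower (10%, against 31.9%). The BMP type I receptor gene BMPR1B (2.36), the endothelial co-receptor gene ENG (0.98) and the activin type II receptor gene ACVR2A (0.61) were higher, and BMPR1A fell by 0.28 on the log2 scale. BMPR1B, ENG and ACVR2A were low, with means of 7.272, 5.826 and 7.726 CPM in VHL-restored cells. Of 11 other SMADs and partners 5 were higher (45.5%) and 2 lower (18.2%). SMAD6, the inhibitory SMAD of the BMP branch, had a log2 fold change of 1.11, SMAD1 0.74 and the SMAD anchor gene ZFYVE9 0.60, whereas TRIM33 fell by 0.20 and TGFBRAP1 fell by 0.18.

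Of 20 other inhibitors and feedback genes 8 were higher (40%, against 32.6% of all genes) and 7 lower (35%, against 31.9%). BAMBI, a decoy receptor (log2 fold change 1.29), the co-repressor gene TGIF1 (0.93) and the ubiquitin ligase gene NEDD4L (0.62) were higher. The BMP antagonist gene NOG fell by 1.65, the ubiquitin ligase gene WWP1 fell by 0.60, and FKBP1A, whose product binds the type I receptor, fell by 0.58 on the log2 scale.

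Of 33 target genes 17 were higher (51.5%, against 32.6% of all genes) and 10 lower (30.3%, against 31.9%). IL11 (log2 fold change 1.91), KLF10 (1.67) and SNAI2 (1.47) were the highest by the fold, and COL5A1, PTHLH and VIM fell by 2.15, 1.94 and 1.21 on the log2 scale. COL5A1 and PTHLH were low in VHL-restored cells, with means of 7.713 and 4.359 CPM. Many of these genes also answer to other signals, and the list is named for its common use. Each gene named here from the lists had an edgeR FDR under 0.05 and groups that did not overlap.

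**Figure D5:**
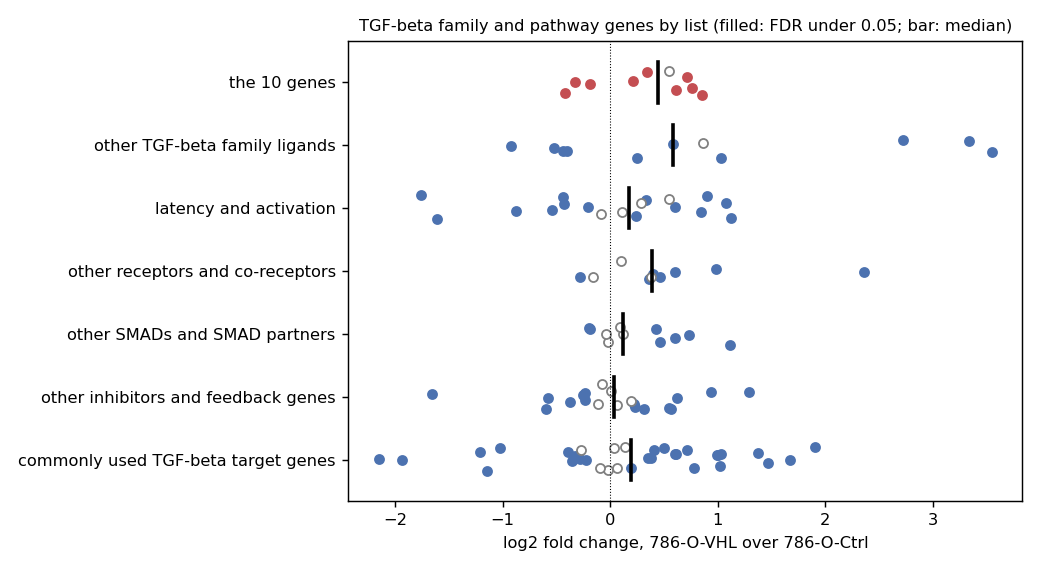
Each point is 1 tested gene placed by its log2 fold change, VHL-restored over control cells, in rows for the 10 genes and the 6 lists, filled where the edgeR FDR was under 0.05, and a bar marks the median of a row. Every row has called genes on both sides of 0, and the list medians run from 0.03 for other inhibitors to 0.58 for other ligands, a row that includes the protease gene BMP1.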

How the data were processed

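Gene expression was measured by RNA-seq, with 2 libraries each for 786-O-Ctrl and 786-O-VHL. The authors deposited 1 table of raw counts per gene for 12912 genes. Per the paper, reads were aligned to hg19 and compared with DESeq2, and the processing notes of the submitters name STAR and CASAVA. How reads were assigned to genes (tool, annotation, strand) is not given in the sources used here. Samples were grouped by their labels. The column names of the 786-O-Ctrl libraries hold a single number, so these were used as unnumbered replicates.

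The test was that of edgeR 4.0.16 (R 4.3.3) after filterByExpr with a minimum count of 10 had kept 12335 genes and dropped 577. With TMM scaling, the quasi-likelihood F test on the group was adjusted by Benjamini-Hochberg over all genes tested. The SE of a log2 fold change is its absolute value divided by the square root of its F statistic. The 95% intervals of log2 fold changes were built from that SE. For 84 rows with a repeated symbol, the identifier with the most counts stood for the symbol. The fit was tested on simulated data. Depth was 2807779 to 22141263 counts, where 3 counts correspond to 0.142 to 1.02 CPM. Coordinates, exon lengths and upstream windows came from GRCh37 with GENCODE annotation. RPKM used the union of annotated exons.

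The 10 genes and the lists were chosen with earlier results of these data known. Named were all 10 genes, VHL, and of each list at most 3 genes per direction with the largest fold change among called genes whose groups did not overlap. The genes under other observations, among them SMAD2, were added after their values were seen. Alternatives were DESeq2 1.42.0, limma-voom (limma 3.58.1), RLE, upper-quartile scaling (chosen after seeing the data), library totals, other filters, thinning, leaving out each library, and stricter thresholds. No amino acid sequence was used here.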

Additional observations from a re-analysis of the deposited data

How the results depend on the processing

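Over the alternatives, 110 of 118 values of single genes kept their direction and their side of the threshold, 8 kept their direction and lost the call, and 0 reversed. The 8 belong to TGFBI (4), TGFB1 (2) and TGFBR1 (2), and their values stand in the report. The log2 fold change ranged from 0.80 to 0.98 for SKIL, 0.56 to 0.74 for SMAD7, 0.59 to 0.85 for TGFB2, 0.57 to 0.90 for INHBA, -0.44 to -0.29 for SMAD3, 0.25 to 0.48 for TGFBR2 and 0.12 to 0.70 for TGFBR3. With library totals alone 1 of the 10 genes (SMAD3), 19 genes of the pathway lists and 3097 of all genes tested were called lower. At an FDR under 0.01 with over 4-fold change, 0 of the 10 genes were called higher and 0 lower. Leaving out 1 library in turn gave 5 to 6 of the 10 genes higher, 2 to 3 lower, 39 to 51 list genes higher and 20 to 29 lower. It leaves a group with 1 library, which is then assumed to vary like the other group. DESeq2 called 39 list genes higher and 21 lower. The share of all genes called is not given here for DESeq2, for fits without 1 library or for the 4-fold threshold. The counts of the 10 genes and of the list genes under these settings therefore cannot be compared with the background of all genes. No paired analysis was possible because the column names give both 786-O-Ctrl libraries 1 and the same number. Genes near TGFBR3 in level are limited by the depth of 786-O-VHL replicate 1.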

Other observations

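Other genes of the pathway were picked out after their values were seen. The feedback gene PMEPA1 had a log2 fold change of -0.11 with a 95% interval from -0.24 to 0.02 (edgeR FDR 0.117). SMAD4, the partner shared by all receptor-activated SMADs, had a log2 fold change of -0.02 with an interval from -0.18 to 0.13 (edgeR FDR 0.817). SMAD2, the other transducer of TGF-beta receptors, was at 64.43 and 68.37 CPM in 786-O-Ctrl and at 88.86 and 92.68 CPM in 786-O-VHL. Its log2 fold change of 0.47 ± 0.07 SE (edgeR FDR 1.76e-06) was opposite in sign to that of SMAD3. The values are those of 2 libraries per group, and their difference from the values of the 10 genes was not tested.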
